A study of Ovis aries with 6 samples.

Results

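The genes examined were 9 of the JAK, STAT and SOCS families, namely JAK1, JAK2, STAT3, STAT5A, STAT5B, SOCS1, SOCS2, SOCS3 and CISH, in perirenal adipose tissue of sheep, the fat depot around the kidney. They were chosen by name in a table of 24390 genes, in which 8 were found, all 8 of which had enough reads to be tested among 13624 genes. No row carried the name SOCS1, and that gene was not analysed here. RNA was sequenced from 3 lambs and from 3 fetuses, each library from a separate animal. The lambs were pure-bred wild-type Merino animals whose age the labels give as 89 days, as 80 days after birth and as 12 weeks, and they were reared with their ewes until weaning. The fetuses were of the same breed and genotype, taken at 132 days post conception (term at 150 days) from ewes fed to maintenance. No treatment is recorded for either stage, although the lamb titles end in VEH, which no other label explains.

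JAK kinases sit on the inner side of cytokine and hormone receptors that have no kinase of their own. When a hormone such as growth hormone, prolactin or leptin, or a cytokine of the interleukin-6 family, brings the receptor chains together, the kinases phosphorylate the receptor and then STAT proteins, which pair up, enter the nucleus and bind DNA. CISH and the SOCS genes are among the genes that STATs switch on, and their proteins bind receptors or kinases and shut the signal down, so the family forms a negative feedback loop. In mammalian fat, STAT5A and STAT5B carry the signals of growth hormone and prolactin, and STAT3 those of leptin and the interleukin-6 family.

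Of the 8 tested members, 3 were higher in lambs (STAT3, STAT5B and SOCS3), 3 were lower (CISH, STAT5A and SOCS2), and the kinase genes JAK1 and JAK2 did not pass the test. Differences are log2 values, lamb minus fetus, ± SE, and a gene was called where its p from edgeR's quasi-likelihood test, adjusted after Benjamini and Hochberg across the 13624 genes, was below 0.05. The members called were 75.0% of those tested, against 44.7% of all genes tested. By direction, 37.5% of the members were higher, against 22.0% of all genes, and 37.5% were lower, against 22.7%. Of the 8 members 1 was called higher without fetal library 1 or 2, where STAT5B and SOCS3 missed the threshold, and 2 were called higher without any 1 of the other libraries. The number called lower was 2 without fetal library 3 and 3 without any 1 of the others. In CPM, scaled as described below, the stages did not overlap for 7 of the 8 members, or 87.5%. Of all genes tested 57.7% did not overlap. Lambs lay above fetuses for 3 members (28.2% of all genes tested did so) and below them for 4 (29.5%). JAK1, which was not called, is among those 4. Overlap was not examined under other scalings. The median difference of the members was -0.08, that of all genes tested -0.01. In whole tissue a lower level can come from fewer cells of a type or from less RNA per cell, which cannot be told apart.

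The lamb libraries held 15907128 to 17263780 counts and the fetal libraries 17535892 to 19150428. Transcripts of the mitochondrial genome took 7.37% to 8.29% of the counts in lambs and 27.5% to 40.7% in fetuses, and levels below are in CPM, which sets each count against its library's size after a TMM correction (trimmed mean of M values). With library totals in place of TMM the median difference of all genes went up by 0.47 and the share of called genes that were higher in lambs to 79.3%, against 49.3% with TMM. Adipocyte genes marked the tissue in both stages, with the lipid droplet gene PLIN1 at 1382 ± 291 CPM in lambs and 1324 ± 243 CPM in fetuses (SD, n = 3 each). PLIN1 was 1 of 2 adipocyte markers that did not pass the test, while 6 of the 8 tested were higher in lambs.

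**Figure D1:**
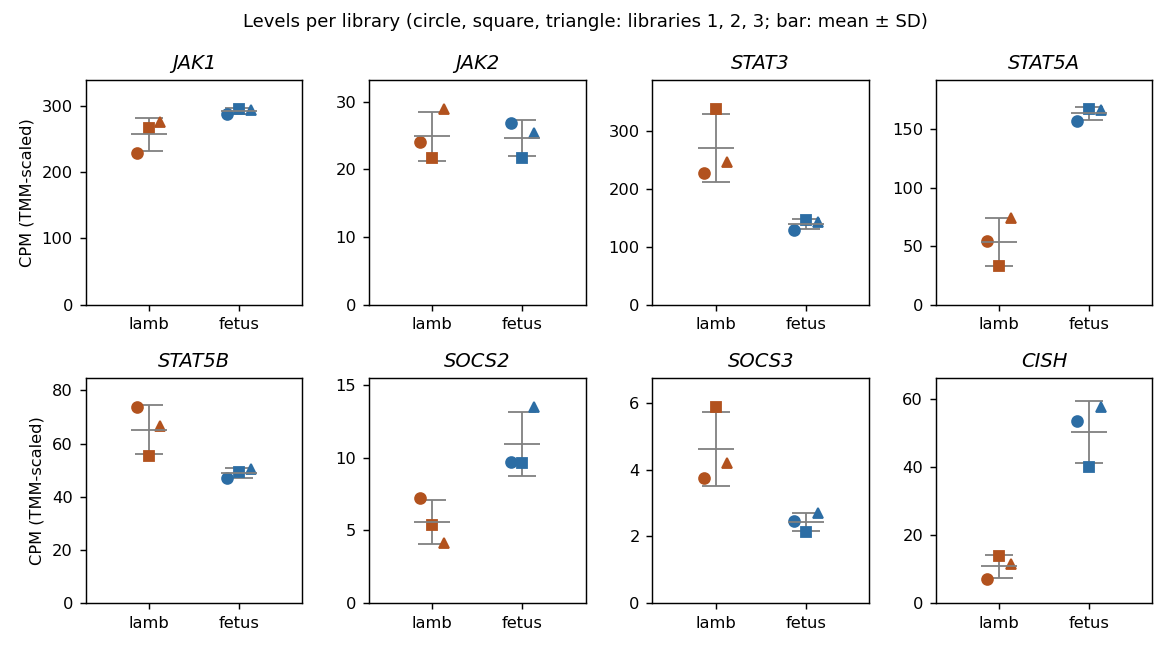
Levels of the 8 members in CPM (linear axes that start at 0), lamb libraries on the left and fetal libraries on the right of each panel, with mean ± SD of 3. Lamb and fetal points separate in every panel except that of JAK2. By SD in CPM, lamb libraries scatter more than fetal libraries in every panel except those of SOCS2 and CISH.

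The order of the genes by length-scaled level differed between the stages. These levels are CPM divided by each gene's count per unit of the authors' RPKM (reads per kilobase of gene model and library size), set to the RPKM scale of lamb library 1. The lamb order was STAT3, JAK1, STAT5B, STAT5A, CISH, SOCS2, JAK2 and SOCS3. STAT3 stood at 63.7 ± 13.9 and JAK1 at 63.5 ± 6.11 in lambs, and their ranges overlapped. JAK1, with a lowest lamb level of 56.5, was clear of STAT5B, whose highest was 35.2. From STAT5B on, each gene overlapped the next in lambs, with STAT5B at 31.1 ± 4.39, STAT5A at 23.0 ± 8.71 and CISH at 17.9 ± 5.70. SOCS2 at 9.25 ± 2.55, JAK2 at 7.55 ± 1.12 and SOCS3 at 5.68 ± 1.37 closed the lamb order (SD, n = 3).

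In fetuses the order of length-scaled levels was CISH, JAK1, STAT5A, STAT3, STAT5B, SOCS2, JAK2 and SOCS3. CISH stood at 83.6 ± 15.1, JAK1 at 72.2 ± 0.984 and STAT5A at 70.2 ± 2.37 in fetuses, and these 3 ranges overlapped. STAT3 at 32.7 ± 2.05 lay below them and above STAT5B at 23.4 ± 0.838. SOCS2 at 18.1 ± 3.63 reached 22.3 in its highest fetal library, just under the lowest STAT5B value of 22.5. JAK2 at 7.47 ± 0.815 and SOCS3 at 2.99 ± 0.342 were separate from their neighbours (SD, n = 3). CISH was thus number 5 of 8 by mean level in lambs and number 1 in fetuses, and STAT3 was number 1 in lambs and number 4 in fetuses.

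**Figure D2:**
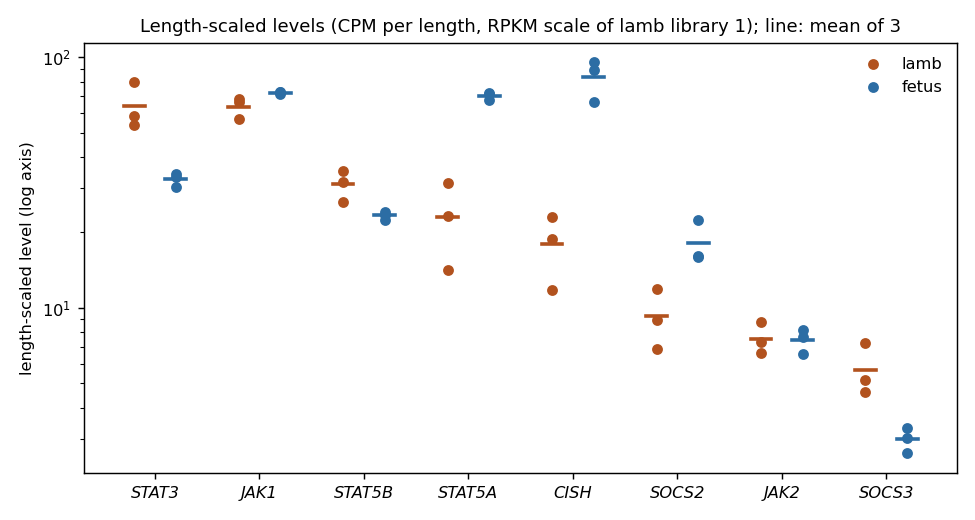
Length-scaled levels of the members (log axis, on the RPKM scale of lamb library 1), 3 libraries per stage with the mean as a line, lambs left of fetuses, genes ordered by their lamb mean. CISH, STAT5A and SOCS2 lie lower and STAT3, STAT5B and SOCS3 higher in lambs than in fetuses. For JAK1, without overlap, and for JAK2 the stages lie close together.

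The kinase genes came first in the pathway and showed no difference past the threshold. JAK1 (ENSOARG00000010117, chromosome 1, 40023498 to 40079204 on Oar v3.1), a kinase shared by interferon and interleukin-6 family receptors, had 229, 267 and 275 CPM in the lamb libraries, against 288, 295 and 294 CPM in the fetal libraries. Every lamb value lay below every fetal value, by a small margin. The difference was -0.19 ± 0.12 (adjusted p = 0.259), with a 95% interval of -0.47 to 0.10. With scaling by library totals JAK1 was at 0.29, on the other side of zero, and did not pass there either (adjusted p = 0.190). Its gene model shares 15 bases with that of RAVER2, an RNA-binding protein gene at 107 ± 12.4 CPM in lambs and 121 ± 19.7 CPM in fetuses.

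JAK2 (ENSOARG00000013480, chromosome 2, 72781813 to 72895325), the kinase of the growth hormone, prolactin and leptin receptors, had 24.0, 21.7 and 28.9 CPM in lambs, against 26.8, 21.6 and 25.4 CPM in fetuses. The stages overlapped completely. The difference was 0.02 ± 0.15 (adjusted p = 0.938), and its 95% interval of -0.33 to 0.36 holds changes of that size in either direction. The ratio of JAK1 to JAK2 counts within a library, which does not depend on scaling, was 10.4 ± 1.60 in lambs and 12.0 ± 1.50 in fetuses, with overlapping values (two-sided exact permutation test, p = 0.3, adjusted over the 3 ratios tested 0.3).

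STAT3 was higher in lambs. STAT3 (ENSOARG00000001511, chromosome 11, 41903051 to 41934839), the factor activated by leptin and interleukin-6 family cytokines, had 227, 337 and 246 CPM in lambs, against 129, 145 and 142 CPM in fetuses. All lamb values lay above all fetal values, and lamb library 2 was the highest. The difference was 0.96 ± 0.17, a 1.95-fold higher level (adjusted p = 0.00333). It passed in all 17 alternatives, at 0.78 to 1.44.

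STAT5A and STAT5B went opposite ways. STAT5A (ENSOARG00000000809, chromosome 11, 41880530 to 41900273), first described as the prolactin-activated mammary gland factor in sheep, had 54.3, 33.1 and 73.8 CPM in lambs, against 158, 167 and 167 CPM in fetuses. The fetal libraries lay within a narrow band, with a coefficient of variation of 3.37%, and the lamb libraries, all lower, varied by 37.9%. STAT5A fell by 1.61 ± 0.26 on the log2 scale, to a 3.05-fold lower level in lambs (adjusted p = 0.00233), and it passed in all 17 alternatives, at -1.91 to -1.14.

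STAT5B (ENSOARG00000018964, chromosome 11, 41807519 to 41832418), its close paralog and the main growth hormone-activated factor of rodent liver, had 73.6, 55.4 and 66.5 CPM in lambs, against 47.0, 49.4 and 50.5 CPM in fetuses. All lamb values were above all fetal values, lamb library 2 by the smallest margin. The difference was 0.41 ± 0.13 (adjusted p = 0.0338). Its call was lost without lamb library 1 or 3 or any of the fetal libraries, where adjusted p ranged from 0.0735 to 0.112, and in the authors' deposited table STAT5B had a signed fold of 1.34, lamb over fetus, with a corrected p of 0.145.

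Summed over both STAT5 genes, the level was 119 ± 27.1 CPM in lambs and 213 ± 7.18 CPM in fetuses. STAT5A supplied 42.4%, 37.4% and 52.6% of the STAT5 counts in the lamb libraries, against 77.0%, 77.2% and 76.8% in the fetal libraries. STAT5A to STAT5B counts stood in ratios of 0.738, 0.598 and 1.11 in lambs and 3.35, 3.39 and 3.30 in fetuses. The log2 difference of the ratio was -2.09, with no overlap, and p was 0.1 in a two-sided exact permutation test (adjusted 0.15), the smallest that 3 against 3 allows. From the authors' RPKM the ratio was 0.689, 0.549 and 0.980 in lambs and 2.91 in fetal library 1. No source used here tells how reads that fit both paralogs were placed, so the split between STAT5A and STAT5B is uncertain to that extent.

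The ratio of STAT3 to STAT5B counts, for the members of the family that were both higher in lambs, was 3.08, 6.09 and 3.70 in lambs and 2.74, 2.95 and 2.80 in fetuses. Lamb library 2 stood above the other lamb libraries. The log2 difference of this ratio was 0.54 (two-sided exact permutation test, p = 0.1, adjusted 0.15) and 0.26 without lamb library 2.

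**Figure D3:**
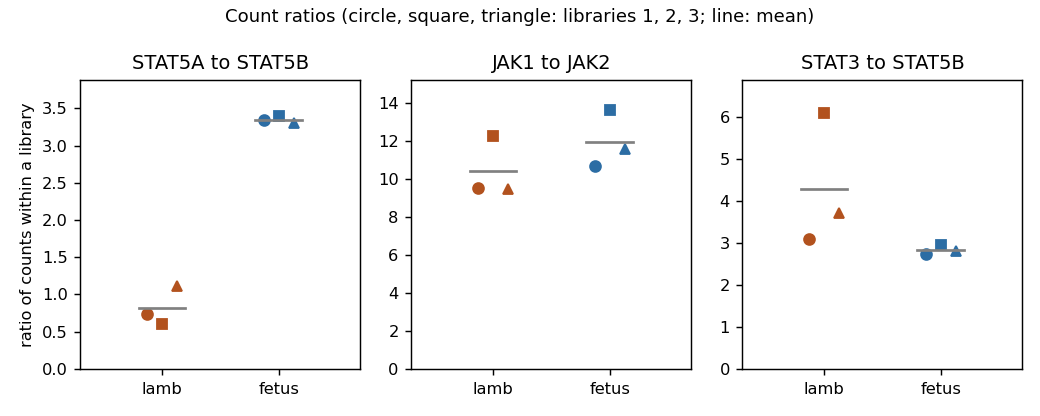
Ratios of counts within each library (linear axes from 0), lambs left of fetuses, with the mean of 3 as a line. The STAT5A to STAT5B ratio lay between 0.598 and 1.11 in lambs and between 3.30 and 3.39 in fetuses, while JAK1 to JAK2 ratios overlapped.

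The 3 STAT genes are neighbours. On chromosome 11 STAT5B, STAT5A and STAT3 follow each other within 127 kb, with 48.1 kb between STAT5B and STAT5A and 2.78 kb between STAT5A and STAT3, so that the gene that fell lies between the genes that rose. Within 100 kb on either side the table holds 7 other genes, of which 5 were tested. The RNA sensor gene DHX58 (difference -1.35 ± 0.28) and GHDC (-0.75 ± 0.19) were lower in lambs, and KAT2A, RAB5C and PTRF did not pass, at 0.12, -0.34 and 0.22. This look at the neighbours was chosen after the values of the STAT genes were seen.

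**Figure D4:**
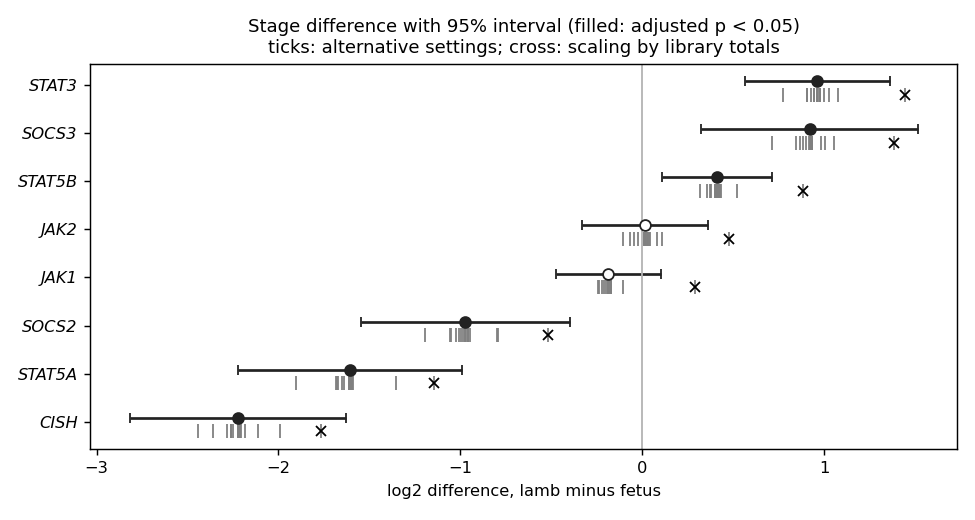
Log2 differences of the members, lamb minus fetus, with 95% intervals (filled where adjusted p was below 0.05), grey ticks for the alternative settings and a cross for scaling by library totals. CISH, STAT5A, SOCS2, STAT5B, SOCS3 and STAT3 keep their side in every setting shown. The JAK genes lie near zero, with crosses at 0.29 for JAK1 and 0.48 for JAK2.

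Among the inhibitors, CISH had the largest difference of all members. CISH (ENSOARG00000008693, chromosome 19, 49701259 to 49705538), a STAT5-induced protein that docks on activated cytokine receptors, had 7.11, 13.9 and 11.3 CPM in lambs, against 53.3, 40.0 and 57.4 CPM in fetuses. The stages were far apart, the highest lamb library lying well under the lowest fetal library. CISH fell by 2.22 ± 0.26 on the log2 scale, to a 4.67-fold lower level in lambs (adjusted p = 4.94e-04), and it passed in all 17 alternatives, at -2.45 to -1.77. Of the 13624 genes tested, 828 had a larger difference in either direction.

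The CISH model shares 539 bases with that of a gene known here only by the identifier ENSOARG00000008494. That gene was at 56.2 ± 8.58 CPM in lambs and 80.3 ± 3.02 CPM in fetuses. It was called lower in lambs too, at -0.51 ± 0.14 (edgeR adjusted p = 0.0180). In lamb library 2 the CISH count was low for its RPKM. Counts per RPKM unit there were 73.1% of the gene's median over the 4 libraries whose RPKM column names its sample, against 97.6% to 105% in the other 3, and between 93.4% and 104% for the other members. In RPKM, CISH was at 11.3, 32.8 and 18.2 in lambs and at 68.9 in fetal library 1, with an authors' fetal mean of 64.2.

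SOCS2 (ENSOARG00000015864, chromosome 3, 129720516 to 129722508), whose loss makes mice grow large through unchecked growth hormone signalling, had 7.21, 5.40 and 4.15 CPM in lambs, against 9.74, 9.64 and 13.5 CPM in fetuses. All lamb values were below all fetal values. SOCS2 fell by 0.97 ± 0.25 on the log2 scale (adjusted p = 0.0153). It missed the threshold when fetal library 3 was left out (-0.79, adjusted p = 0.0580) and with scaling by library totals (-0.52, adjusted p = 0.174).

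SOCS3 (ENSOARG00000000175, chromosome 11, 52828414 to 52829103), the STAT3-induced inhibitor of leptin and interleukin-6 family receptors, was the least read member, with 76, 113 and 84 counts in lambs and 41, 29 and 45 counts in fetuses. Its gene model spans 690 bases. The exact 95% Poisson intervals, which cover counting error only, were 59.9 to 95.1, 93.1 to 136 and 67.0 to 104 counts in lambs and 29.4 to 55.6, 19.4 to 41.6 and 32.8 to 60.2 counts in fetuses. In CPM it had 3.76, 5.86 and 4.20 in lambs, against 2.45, 2.13 and 2.69 in fetuses, with no overlap. The difference was 0.92 ± 0.26 (adjusted p = 0.0214). It no longer passed without lamb library 2 (difference 0.71, adjusted p = 0.0628), without fetal library 1 (0.92, adjusted p = 0.0605) or without fetal library 2 (0.84, adjusted p = 0.0743). SOCS3 thus rose where CISH and SOCS2 fell.

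Lamb library 2 was the highest of the 3 lamb libraries for STAT3, SOCS3 and CISH and the lowest for STAT5A, STAT5B and JAK2. Relative to the lamb mean on the log2 scale it stood at 0.34 for STAT3, 0.37 for SOCS3 and 0.42 for CISH, and at -0.62 for STAT5A, -0.22 for STAT5B and -0.18 for JAK2. Its summed immediate early genes were also the highest of the lambs, with 1236, 1387 and 1040 CPM in lamb libraries 1, 2 and 3, against 341, 269 and 241 CPM in the fetal libraries. The same library had the highest sum of smooth muscle and pericyte markers, with 379, 1220 and 483 CPM in lamb libraries 1, 2 and 3, against 678, 524 and 400 CPM in the fetal libraries. It had the lowest adipocyte sum of the lambs, with 39145, 28301 and 36696 CPM in lamb libraries 1, 2 and 3, against 14407, 17981 and 15793 CPM in the fetal libraries. The part of these genes in the values of the members was not tested. Without lamb library 2, STAT3 was at 0.78, STAT5A at -1.35 and CISH at -2.45, all past the test.

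Upstream of the kinases, several receptor genes passed the test. For the lists from here on, the shares over all genes tested were 22.0% higher and 22.7% lower in lambs. Of the 6 listed receptors that signal as pairs of 1 chain through JAK2, 3 were tested, with 1 higher, 1 lower and 1 not past the test. Their median of -0.95 ranged from -1.53 without lamb library 1 to 0.10 without fetal library 3. Tested genes were chosen anew without each library, so the receptors behind these medians could differ. GHR, the growth hormone receptor, had 438, 300 and 374 CPM in lambs, against 49.0, 47.5 and 44.8 CPM in fetuses. PRLR, the prolactin receptor, had 0.642, 0.363 and 0.550 CPM in lambs, against 43.0, 32.9 and 33.1 CPM in fetuses. These receptors, which both signal through JAK2 and STAT5, went opposite ways, with differences of 2.98 ± 0.17 for GHR and -6.11 ± 0.23 for PRLR. LEPR, the leptin receptor, was too low to test, at 0.218 ± 0.152 CPM in lambs and 1.36 ± 1.53 CPM in fetuses.

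Of 4 tested receptors of the interleukin-6 family, which share the gp130 chain and signal largely to STAT3, 2 were higher, 0 were lower and 2 missed the threshold (median 0.76). That number called is near the 44.7% called among all genes tested. IL6R, the interleukin-6 receptor, had 53.4, 21.8 and 29.2 CPM in lambs, against 5.68, 4.12 and 5.13 CPM in fetuses (difference 2.80 ± 0.34, adjusted p = 6.41e-04). OSMR, the oncostatin M receptor, rose to 81.1 ± 6.09 CPM in lambs, against 33.5 ± 4.26 CPM in fetuses (1.27 ± 0.13). The shared chain gene IL6ST was at 195 ± 36.7 CPM in lambs and 166 ± 8.67 CPM in fetuses and did not pass (0.24 ± 0.16, adjusted p = 0.266). Without lamb library 1 or any 1 of the fetal libraries, 3 or 4 receptors of the list were called and the median was 1.18 to 1.35. Tested genes were chosen anew in those fits, so the receptors could differ from these 4.

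Of 13 tested receptors for interferons, interleukins 4 and 10 and common chain cytokines, 9 rose and 0 fell, while 4 did not pass (median 0.86, all genes tested -0.01). IL10RA, the interleukin-10 receptor chain of immune cells, rose by 2.60 ± 0.42, IL2RB by 2.20 ± 0.45 and IL15RA by 1.36 ± 0.25. IL10RA was at 14.8, 25.0 and 11.2 CPM in lambs, against 2.45, 1.54 and 4.30 CPM in fetuses. Markers of macrophages, which also express IL10RA, were higher in lambs for 8 of 10 tested, as given below. The part of macrophages in the IL10RA values was not tested.

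Most ligand transcripts were scarce. Of 22 listed ligands 19 were in the table and 5 were read enough to test, of which 2 rose and 3 missed the threshold. Among all genes tested 44.7% were called, a share near that of the ligands. The median was -0.0035. With 1 library left out it lay between 0.16 (fetal library 3) and 1.36 (fetal library 1), with 2 or 3 ligands called. The genes to be tested were chosen anew in each of these fits, so the ligands could differ from these 5. CTF1, cardiotrophin 1, rose by 2.54 ± 0.47, to 2.11 ± 0.453 CPM in lambs, against 0.348 ± 0.229 CPM in fetuses. CLCF1, a ligand of the ciliary neurotrophic factor receptor, rose by 1.56 ± 0.28, to 6.26 ± 1.50 CPM in lambs, against 2.11 ± 0.506 CPM in fetuses. LEP, the leptin gene, was at 11.3 ± 12.2 CPM in lambs and 11.3 ± 1.30 CPM in fetuses and did not pass (-0.0035 ± 0.68). IL6 itself was at 0.186 ± 0.127 CPM in lambs and 0.0199 ± 0.0345 CPM in fetuses, too low to test.

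Of 4 tested JAK and STAT genes beyond the members, 2 were higher, 0 were lower and 2 missed the threshold (median 0.14). With so few genes this is near the 44.7% called among all genes tested. The median lay between 0.068 without fetal library 2 and 0.30 without lamb library 3. STAT6, the interleukin-4 factor, had 106, 108 and 89.1 CPM in lambs, against 50.0, 45.5 and 47.9 CPM in fetuses (difference 1.08 ± 0.12, adjusted p = 4.22e-04). TYK2, a kinase of interferon receptors, was at 108 ± 12.2 CPM in lambs and 76.5 ± 6.40 CPM in fetuses (0.49 ± 0.13, adjusted p = 0.0184), a call lost without fetal library 1 or 2, where 1 gene of the list was called. The interferon-activated gene STAT2 did not pass, at -0.30 ± 0.11 (adjusted p = 0.0641), and neither did JAK3 at -0.22 ± 0.26.

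Of 14 tested inhibitors outside the members, 6 were higher, 2 were lower and 6 missed the threshold (median 0.39). The share called among all genes tested was 44.7%. SOCS4, SOCS5 and SOCS7 were among those that did not pass, at 0.14 ± 0.16, 0.01 ± 0.13 and 0.48 ± 0.17. PTPRC, the leukocyte phosphatase CD45, was higher by 1.08 ± 0.34 with overlapping stages, a call lost without lamb library 1 or 2 or fetal library 2 or 3 (0.79 to 1.11, adjusted p of 0.0792 to 0.113) and with limma-voom (adjusted p = 0.0506). The STAT phosphatase gene PTPN2 rose by 0.61 ± 0.15 and the SUMO ligase gene PIAS4 by 0.49 ± 0.12, the PIAS4 call being lost without fetal library 1 or 3 (adjusted p = 0.0576 and 0.0538). PTPN6, the phosphatase SHP-1 that removes phosphate from JAKs, had 19.2, 18.6 and 11.5 CPM in lambs, against 35.4, 38.1 and 39.1 CPM in fetuses, and fell by 1.19 ± 0.20. PIAS3, an inhibitor of STAT3, was at -0.37 ± 0.11 (adjusted p = 0.0262), at 0.10 with scaling by library totals, and not called without any 1 of the libraries other than lamb library 3 (-0.39 to -0.32, adjusted p of 0.0531 to 0.0821). Of this list 8 genes were called, against 5 without lamb library 2 and 4, 3 and 3 without fetal libraries 1, 2 and 3.

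Of 10 tested adaptors, 7 rose and 1 fell, while 2 did not pass (median 0.54). IRS1, an insulin and growth hormone docking protein, rose by 2.34 ± 0.19, its relative IRS2 by 1.41 ± 0.21 and the endosomal sorting gene STAM2 by 0.99 ± 0.11. SH2B1, which binds JAK2 and enhances leptin and growth hormone signals, had 22.6, 21.3 and 22.2 CPM in lambs, against 47.5, 51.0 and 56.0 CPM in fetuses, and fell by 1.22 ± 0.11.

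**Figure D5:**
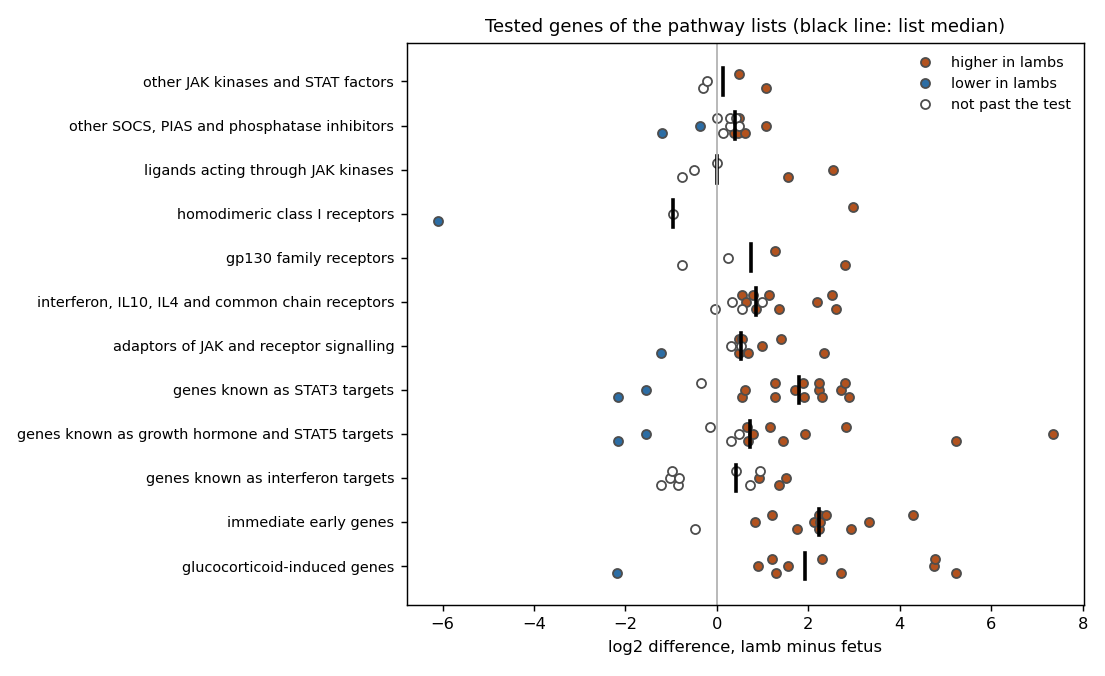
Log2 differences, lamb minus fetus, of every tested gene in the lists around the members, 1 point per gene (orange higher, blue lower in lambs, white not past the test), with a black line at each list's median. Points of the STAT3 target, immediate early and glucocorticoid lists lie mostly above zero, with medians of 1.80, 2.24 and 1.93, while that of the JAK kinases and STAT factors beyond the members is 0.14.

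Of 16 tested genes known elsewhere as STAT3 targets, 13 rose in lambs, 2 fell and 1 did not pass (median 1.80). CCL2, a monocyte attractant, rose by 2.90 ± 0.29 and HIF1A, the oxygen-regulated factor, by 2.72 ± 0.18, with IL6R as above. BCL6, a transcriptional repressor, had 24.1, 27.8 and 40.4 CPM in lambs, against 150, 171 and 91.3 CPM in fetuses (-2.16 ± 0.28), and the kinase gene PIM1 had 11.2, 14.7 and 11.3 CPM in lambs, against 36.3, 40.3 and 32.0 CPM in fetuses (-1.55 ± 0.16). MYC and JUNB of this list are immediate early genes too, CEBPD is also among the glucocorticoid-induced genes below, and OSMR is among the receptors above. Immediate early genes, whose transcripts can also change while tissue is being collected, were higher for 11 of 12 tested and lower for 0 (median 2.24), ATF3, FOSB and ZFP36 by 4.30 ± 0.23, 3.33 ± 0.47 and 2.93 ± 0.18.

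Of 14 tested genes known as growth hormone or STAT5 targets, 9 were higher, 2 were lower and 3 missed the threshold (median 0.73). CYP4B1, PDK4 and FABP4 rose by 7.35 ± 0.99, 5.23 ± 0.41 and 2.83 ± 0.27, and FABP4, LPL and PPARG (listed as PPARG2) are adipocyte markers as well. CYP4B1 had 24.9, 11.2 and 71.0 CPM in lambs, against 0.418, 0 and 0.179 CPM in fetuses, so the size of its difference rests on fetal values near the floor. The genes that fell were BCL6 and PIM1, which stand in the STAT3 list too. IGF1, the classical growth hormone target, did not pass, at 8.22 ± 2.60 CPM in lambs and 5.84 ± 2.50 CPM in fetuses. Of 10 tested genes induced by glucocorticoids, 9 were higher and 1 lower (median 1.93), with PDK4 again, MT2 and FKBP5 at 4.76 ± 0.46 and 4.75 ± 0.39, and ANGPTL4 at -2.17 ± 0.20. DUSP1 of this list is an immediate early gene too.

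Of 11 tested genes known as interferon targets, 3 rose and 0 fell, while 8 did not pass (median 0.42). PSMB9, B2M and IRF1, genes of antigen presentation and its control, rose by 1.51 ± 0.26, 1.36 ± 0.28 and 0.92 ± 0.22. The antiviral genes MX1, MX2, IFI6, IFIT1 and IFIT3 did not pass, at -1.23 ± 0.45, -0.98 ± 0.61, -1.02 ± 0.52, -0.86 ± 0.32 and -0.83 ± 0.41 (adjusted p of 0.0582 to 0.227). The number called was 8 without lamb library 2, with a median of 0.24, and 6 without lamb library 3. These counts take both directions together, so they do not tell how many of those genes were lower. With at least 5 CPM in 3 libraries 3 were called and the median was -0.24.

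Markers of other cells differed between the stages beside these genes. Macrophage markers were higher in lambs for 8 of 10 tested and lower for 0, and their sum was 1237 to 1534 CPM in lambs and 157 to 334 CPM in fetuses, mostly MRC1 in lambs at 993 ± 163 CPM. T and NK cell markers had 1 of 7 higher, with sums of 7.55 to 33.0 CPM in lambs and 9.07 to 15.0 CPM in fetuses. Without lamb library 3, 5 were called, but tested genes were chosen anew there and the markers could differ. B and plasma cell markers had 1 of 3 higher, with sums of 5.10 to 21.8 CPM in lambs and 6.74 to 7.65 CPM in fetuses. Adipocyte markers had 6 of 8 higher, with sums of 28301 to 39145 CPM in lambs and 14407 to 17981 CPM in fetuses. Endothelial markers had 1 of 6 higher and 2 lower, with 1 call left without lamb library 2 or fetal library 2 or 3, with sums of 1481 to 1581 CPM in lambs and 1445 to 1823 CPM in fetuses.

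Fibroblast markers had 2 of 6 higher, with 5 called without fetal library 2 and 1 without fetal library 3, with sums of 7825 to 9141 CPM in lambs and 7127 to 14897 CPM in fetuses, and smooth muscle and pericyte markers had 1 of 5 higher, with sums of 379 to 1220 CPM in lambs and 400 to 678 CPM in fetuses. All 3 tested red cell markers were lower, with sums of 30.5 to 56.4 CPM in lambs and 358 to 1273 CPM in fetuses. All 7 epithelial markers were lower, with sums of 0.363 to 0.400 CPM in lambs and 46.8 to 178 CPM in fetuses, and EPCAM and UPK3A were at 0 in every lamb library. Median differences were 1.64 for the macrophage, 0.62 for the T and NK cell, 0.67 for the B cell, 1.06 for the adipocyte, -0.03 for the endothelial, -0.05 for the fibroblast, 0.32 for the smooth muscle and -2.96 for the red cell list. Leaving out 1 library moved the T and NK cell median to between 0.20 (lamb library 1) and 1.53 (lamb library 3). The B cell median moved to between 0.068 (lamb library 1) and 1.06 (lamb library 3). The markers tested could differ in these fits. With 1 library left out, the single call was lost for T and NK cells without lamb library 1 or 2 or fetal library 2, for B cells without any but lamb library 3, and for smooth muscle without lamb library 3 or fetal library 2 or 3. The smooth muscle median went to -0.19 (lamb library 2) and the fibroblast median to between -0.25 (fetal library 2) and 0.21 (fetal library 1). The endothelial median lay between -0.11 (lamb library 3) and 0.018 (lamb library 2). The part of these cells in the values of the 8 members was not tested.

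By pattern over the 6 libraries, the genes most like STAT3 among 9065 named genes with a mean of at least 5 CPM were ITFG2, UBAP2L and TSPYL2, with Pearson correlations of log2 CPM of 0.999, 0.998 and 0.998. Those most like CISH were GTF3C1, EARS2 and DGCR8, at 0.999, 0.998 and 0.994. The 6 points share 2 stages, and 511 genes had a correlation above 0.95 with STAT3 and 329 with CISH, so these values describe the libraries only.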

How the data were processed

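Reads were mapped by the authors with CLC Genomics Workbench 7.0 to Ensembl genes, release 74, of sheep assembly Oar v3.1, per the labels' design text. Libraries were single-end 50 bp. No source used here states the read filters, the handling of multiply placed reads or the strand setting. The deposited table gives counts per gene and library, RPKM per library and stage mean, and a signed fold score, p-value and corrected p-value of the authors' own edgeR comparison. Another 8 per-library RPKM columns were not used, some because 1 header stands over more than 1 of them. Length-scaled levels divide TMM-scaled CPM by the gene's median count per RPKM unit over the 3 lamb libraries and fetal library 1.

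Counts were fitted with edgeR 4.0.16 in R 4.3.3 (filterByExpr, TMM, quasi-likelihood F test, no covariates, tested on simulated data). The SE is the difference divided by the root of F. Alternatives included DESeq2 1.42.0 and limma 3.58.1. Each library is 1 animal. The members and lists were chosen with earlier results of these data known. Named list genes were called ones of at least 1 CPM, up to 3 with the largest change in the majority direction and 2 in the other. A few others (IL6ST, LEPR, LEP, IL6, STAT2, JAK3, SOCS4, SOCS5, SOCS7, IGF1, MX1, MX2, IFI6, IFIT1, IFIT3) were added after their values were seen. A gene of the list of other JAK and STAT genes is not reported here. Genes sharing bases were counted as deposited.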

Additional observations from a re-analysis of the deposited data

How the results depend on the processing

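Under 17 alternatives (scaling, filters, tests, the prefiltered table, the replicate number as a block and 1 library left out at a time) STAT3, STAT5A and CISH kept their direction and call, and all genes called ranged from 4798 to 7057, against 6095. With library totals JAK1 was at 0.29, SOCS2 at -0.52 and PIAS3 at 0.10. JAK2, never past the test, was at -0.045 with upper quartile factors and -0.024 with at least 5 CPM in 3 libraries, where SOCS3 and the T, NK and B cell lists had no value. STAT5B lost its call with upper quartile factors (0.35, adjusted p = 0.0550). On leaving out 1 library, STAT5B ranged from 0.32 to 0.52, SOCS3 from 0.71 to 1.05, SOCS2 from -1.20 to -0.79 and JAK2 from -0.11 to 0.11, and 4 or 5 of the 8 members were called. Samples with the same replicate number did not deviate together (correlations of 0.0033, -0.12 and 0.046). With 3 libraries per stage this cannot exclude a pairing of animals by number. With the replicate block 5353 genes were called. STAT5B was at 0.40 there (adjusted p = 0.0674) and SOCS3 at 0.90 (adjusted p = 0.0551), both lost. Of 36 named list genes, 32 kept direction and call in every alternative; TYK2, PTPRC, PIAS4 and PIAS3 did not. The 3 ratios kept their direction when 1 library was left out. Tested genes were chosen anew for each library left out, with 13854 to 13947 genes tested. List counts and medians there can therefore cover other genes than the main fit. Low counts limit SOCS3, and 3 animals per stage limit every p from permutation to 0.1. The planned search for a STAT motif was not run, because no sequence was used here.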
